A study of Bos grunniens with 9 samples.

Results

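The genes TPPP3, KCNG1, CHRDL2, ARHGEF3, PMEL and CNGA3, 6 of the 21652 genes in the deposited tables, were examined because their ribosome footprints fell from anestrus to pregnancy in yak ovaries. They were chosen by name with the pregnancy and anestrus values known, so their levels, and every comparison that shares those libraries, are given as a description with no test. Each symbol had 1 identifier. Ribosome profiling counts mRNA stretches held by ribosomes, so a footprint count follows both the amount of an mRNA and how heavily it is translated. The ovaries came from yaks (Bos grunniens) aged 6 years, sampled in April (anestrus), August (estrus) and December (pregnancy), with 3 biological replicates and so 3 libraries a stage. The labels name no genotype, transgene or drug. Stage and season changed together and cannot be told apart, and the labels do not tie replicates to named animals, so errors cover the spread between these samples. In whole ovaries, fewer cells of a type and fewer footprints per cell cannot be told apart.

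The 6 genes have unlike jobs. CHRDL2 (chordin like 2) is secreted and binds bone morphogenetic proteins (BMPs), growth factors through which oocyte, granulosa and theca cells signal to each other. KCNG1 is a potassium channel subunit that is silent alone and alters the gating of the channels it joins. CNGA3 is the pore-forming subunit of the cyclic nucleotide-gated channel of cone photoreceptors. ARHGEF3 loads GTP onto the small GTPases RHOA and RHOB, which control actin tension, and in human cells it also binds and restrains mTOR complex 2. TPPP3 binds tubulin and bundles microtubules. PMEL forms the amyloid fibrils on which pigment is laid down in melanosomes. The annotation in the deposited tables attached 47 terms to these genes and none to more than 2 of them, and 5 of the 6 shared terms joined the channel subunits KCNG1 and CNGA3.

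Library totals ran from 1.47 to 28.94 M counts (M, 1e6), and the 3 anestrus libraries were the deepest. CPM below are counts per 1e6 counts after TMM scaling, and 3 counts over the unscaled library total corresponded to 0.104 CPM in anestrus replicate 2 but to 2.04 CPM in pregnancy replicate 3. Those 2 libraries stood apart by their cell type markers or depth. Among 13936 genes tested in edgeR, 0 passed an adjusted p under 0.05 between pregnancy and anestrus, though 951 had an unadjusted p below 0.05, whereas DESeq2 called 30. Estrus versus anestrus gave 0, 981 and 15 genes by the same counts, and pregnancy versus estrus 0, 1035 and 29.

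All 6 genes passed the filter on low counts. In all 6 every pregnancy library lay below every anestrus library, an order that 6.9% of tested genes showed and that the choice of the genes built in. Mean anestrus levels were 3.35 (TPPP3) to 5.94 (KCNG1) times the pregnancy means. The median log2 fold change of the 6 was -2.21, against 0.00 over all tested genes, and it was -1.70 without anestrus replicate 2 and pregnancy replicate 3. In edgeR 0 of the 6 passed over all genes (0% of tested genes did). All 6 were among the 16 genes that DESeq2 called lower in pregnancy (0.118%) and among the 18 that the authors' deposited table lists as lower at an FDR under 0.05 (0.0995%). Since the choice of the genes used this contrast, nothing is read from those calls.

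**Figure D1:**
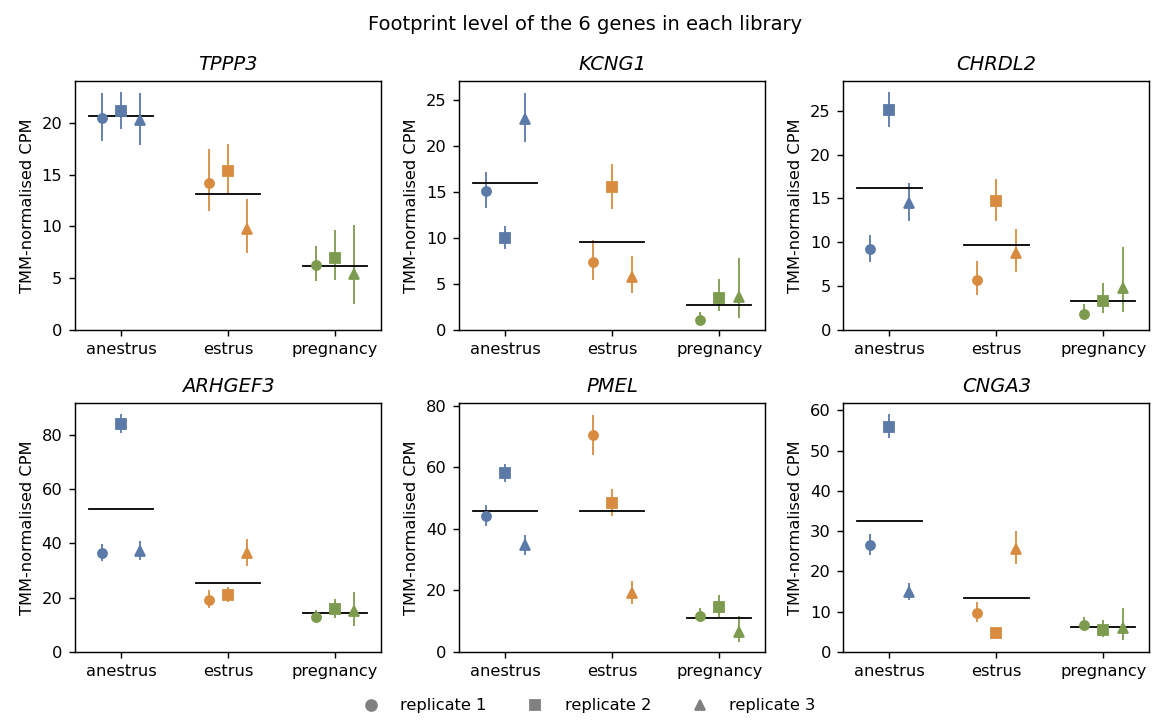
Footprint level (TMM-normalised CPM, linear axis from 0) of each gene in the 9 libraries by stage. Points are libraries with exact 95% Poisson intervals, which cover counting error only, and black lines are stage means. All pregnancy points lie below all anestrus points, and TPPP3 spans 20.3 to 21.2 CPM in anestrus, less than its Poisson intervals there.

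CHRDL2 (ENSBTAG00000021306), the BMP-binding protein, was measured at 9.19, 25.1 and 14.4 CPM in the 3 anestrus libraries. Its estrus values were 5.63, 14.7 and 8.76 CPM, and in pregnancy it had 1.80, 3.25 and 4.76 CPM. The means were 16.2 ± 8.09, 9.70 ± 4.61 and 3.27 ± 1.48 CPM (SD, n = 3 each). Estrus libraries overlapped the anestrus range and all lay above pregnancy. The pregnancy values rest on 17, 16 and 8 counts, and the exact Poisson interval of the last library, 2.06 to 9.38 CPM, reaches the anestrus range. The log2 fold change of pregnancy over anestrus was -2.46 ± 0.53 (SE), and between -2.74 and -2.0 when single libraries were left out.

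KCNG1 (ENSBTAG00000003398), the silent potassium channel subunit, had 15.1, 9.95 and 23.0 CPM in anestrus. In estrus the values were 7.35, 15.5 and 5.73 CPM. In pregnancy they were 1.06, 3.45 and 3.57 CPM, from 10, 17 and 6 counts. Estrus replicate 2 lay above 2 of the anestrus libraries, whereas the highest pregnancy library was below the lowest estrus one. Stage means were 16.0 ± 6.55, 9.52 ± 5.22 and 2.69 ± 1.42 CPM (SD, n = 3 each). The log2 fold change of pregnancy over anestrus, -2.71 ± 0.58 (SE), was the largest fall of the 6. It was -2.19 without pregnancy replicate 1 and -3.16 at its lowest with single libraries left out.

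CNGA3 (ENSBTAG00000054062), the cyclic nucleotide-gated channel subunit, varied widely within the stages before pregnancy. Anestrus libraries had 26.6, 56.0 and 14.9 CPM and estrus libraries 9.54, 4.74 and 25.6 CPM. Pregnancy libraries were close together, at 6.68, 5.48 and 5.95 CPM (63, 27 and 10 counts). Estrus overlapped both other stages, since estrus replicate 2 was below all pregnancy libraries and estrus replicate 3 was above 1 anestrus library. Stage means were 32.5 ± 21.2, 13.3 ± 10.9 and 6.04 ± 0.604 CPM (SD, n = 3 each). The log2 fold change of pregnancy over anestrus was -2.42 ± 0.64 (SE), and leaving out anestrus replicate 2 moved it to -1.78.

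ARHGEF3 (ENSBTAG00000014091), the RHOA and RHOB exchange factor, was 1 of the 2 genes whose 3 stages did not overlap. It had 36.6, 84.1 and 37.2 CPM in anestrus and 19.2, 21.0 and 36.4 CPM in estrus. The pregnancy libraries had 12.8, 15.6 and 14.9 CPM. The gap between anestrus and estrus was small, since estrus replicate 3 (36.4 CPM) lay just under anestrus replicate 1 (36.6 CPM). Stage means were 52.6 ± 27.2, 25.5 ± 9.44 and 14.4 ± 1.45 CPM (SD, n = 3 each). Anestrus replicate 2 lay far above all other libraries, and without it the log2 fold change of pregnancy over anestrus was -1.37 in place of -1.87 ± 0.38 (SE).

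TPPP3 (ENSBTAG00000019822), the microtubule-bundling protein, was the other gene with separate stages. The anestrus values were 20.5, 21.2 and 20.3 CPM, those of estrus 14.2, 15.4 and 9.77 CPM. Pregnancy libraries had 6.25, 6.90 and 5.36 CPM, from 59, 34 and 9 counts. Stage means were 20.7 ± 0.471, 13.1 ± 2.96 and 6.17 ± 0.775 CPM (SD, n = 3 each). The SD was 2.28% of the mean in anestrus, 22.6% in estrus and 12.6% in pregnancy. The exact Poisson intervals in anestrus, 18.3 to 22.9, 19.4 to 23.1 and 17.9 to 23.0 CPM, were wider than the spread of these libraries. In pregnancy replicate 3 the interval ran from 2.45 to 10.2 CPM. Nothing is therefore read from the closeness of the values. The log2 fold change of pregnancy over anestrus was -1.72 ± 0.25 (SE) and lay between -1.81 and -1.66 when single libraries were left out.

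PMEL (ENSBTAG00000004019), the fibril protein of melanosomes, did not step down at estrus. It had 44.3, 58.1 and 34.7 CPM in anestrus and 70.4, 48.5 and 19.0 CPM in estrus, with means of 45.7 ± 11.7 and 46.0 ± 25.8 CPM (SD, n = 3 each). Pregnancy libraries had 11.8, 14.6 and 6.55 CPM and all lay below every library of both other stages. The log2 fold change of pregnancy over anestrus was -2.0 ± 0.45 (SE), and -1.59 without both anestrus replicate 2 and pregnancy replicate 3.

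Stage means fell in the order anestrus, estrus, pregnancy in 5 of the 6 genes, an order that 17.3% of tested genes showed. The choice of the genes built in anestrus above pregnancy, so the 2 shares are not alike and nothing is read from them. On the log2 scale, estrus had covered 56.0% of the fall from anestrus to pregnancy for ARHGEF3, 54.1% for CNGA3, 37.8% for TPPP3, 29.9% for CHRDL2, 26.9% for KCNG1 and -0.400% for PMEL. Estrus versus anestrus and pregnancy versus estrus share libraries with the contrast that chose the genes. The log2 fold changes of estrus over anestrus (± SE) were -1.31 ± 0.59 for CNGA3, -1.05 ± 0.36 for ARHGEF3, -0.73 ± 0.46 for CHRDL2, -0.73 ± 0.49 for KCNG1, -0.65 ± 0.23 for TPPP3 and 0.01 ± 0.42 for PMEL. In 2 genes, TPPP3 and ARHGEF3, every estrus library lay below every anestrus library, as in 6.43% of tested genes. None of the 6 was called lower in estrus by edgeR (0% of genes called), by DESeq2 (0.0576%) or in the authors' deposited table (0.0829%).

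From estrus to pregnancy the log2 fold changes (± SE) were -2.01 ± 0.45 for PMEL, -1.98 ± 0.58 for KCNG1, -1.73 ± 0.53 for CHRDL2, -1.11 ± 0.64 for CNGA3, -1.07 ± 0.25 for TPPP3 and -0.83 ± 0.38 for ARHGEF3. In 5 genes, all but CNGA3, every pregnancy library lay below every estrus library, as in 6.59% of tested genes. PMEL was the 1 gene of the 6 called lower in pregnancy than in estrus by DESeq2 (0.0661% of genes) and in the authors' deposited table (0.0553%), and edgeR called none (0%). Single libraries decided several of these steps. Without estrus replicate 3, CNGA3 was -0.21 for pregnancy over estrus and -2.21 for estrus over anestrus, and ARHGEF3 was -0.49 for pregnancy over estrus. Without anestrus replicate 2, estrus over anestrus was -0.66 for CNGA3, -0.54 for ARHGEF3 and -0.28 for CHRDL2. Without estrus replicate 2 it was -1.29 for KCNG1 and -1.18 for CHRDL2, and without anestrus replicate 3 -0.38 for KCNG1. For PMEL it ran from -0.43 without estrus replicate 1 to 0.37 without estrus replicate 3, so its sign was not settled.

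**Figure D2:**
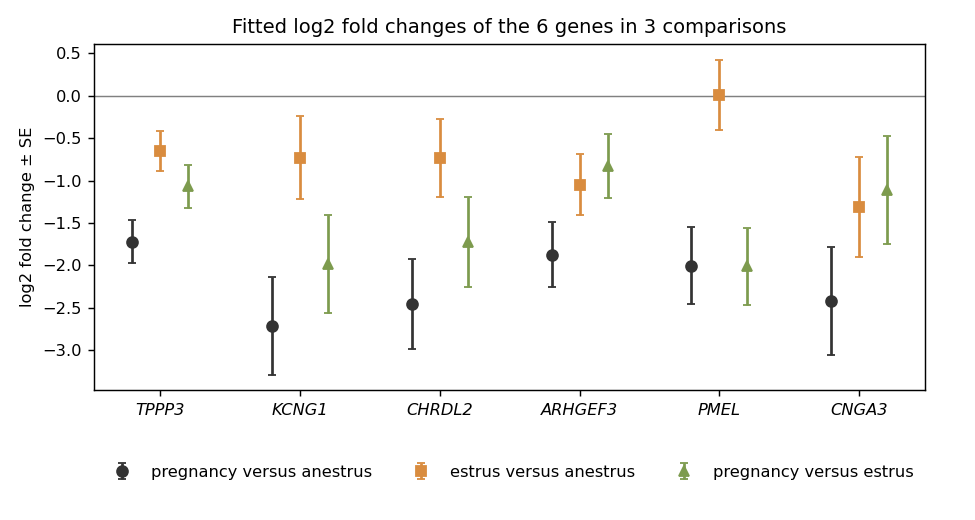
Fitted log2 fold change of each gene in the 3 comparisons, which share libraries (bars are 1 SE from edgeR). Estrus over anestrus is near 0 for PMEL (0.01) and below 0 for the other 5 genes. Pregnancy over anestrus, the contrast that chose the genes, is lowest for KCNG1 (-2.71).

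Inside the stages some of the 6 genes moved alike and others did not. Each library was compared with its stage mean on the log2 CPM scale (prior count 2). In anestrus replicate 2, CNGA3, ARHGEF3, CHRDL2, PMEL and TPPP3 were at the highest of their stage (0.99, 0.79, 0.74, 0.38 and 0.04 from the mean), while KCNG1 was at its lowest (-0.59). In estrus replicate 3, CNGA3 (1.26) and ARHGEF3 (0.57) were high where PMEL (-1.07), KCNG1 (-0.58) and TPPP3 (-0.39) were low. Estrus replicate 2 was the reverse for CNGA3 (-1.12) and KCNG1 (0.82). In pregnancy replicate 1, KCNG1 (-1.04) and CHRDL2 (-0.70) were at their lowest, where CNGA3 (0.15) was at its highest. For these 3 genes the exact Poisson intervals of pregnancy replicates 1 and 3 overlapped, as did those of TPPP3 in anestrus. Those orders were thus not settled against counting error. Over the 9 deviations, which share libraries and depth, Pearson's r was highest for TPPP3 with PMEL (0.90) and ARHGEF3 with CNGA3 (0.81) and lowest for KCNG1 with CNGA3 (-0.74), given as a description.

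**Figure D3:**
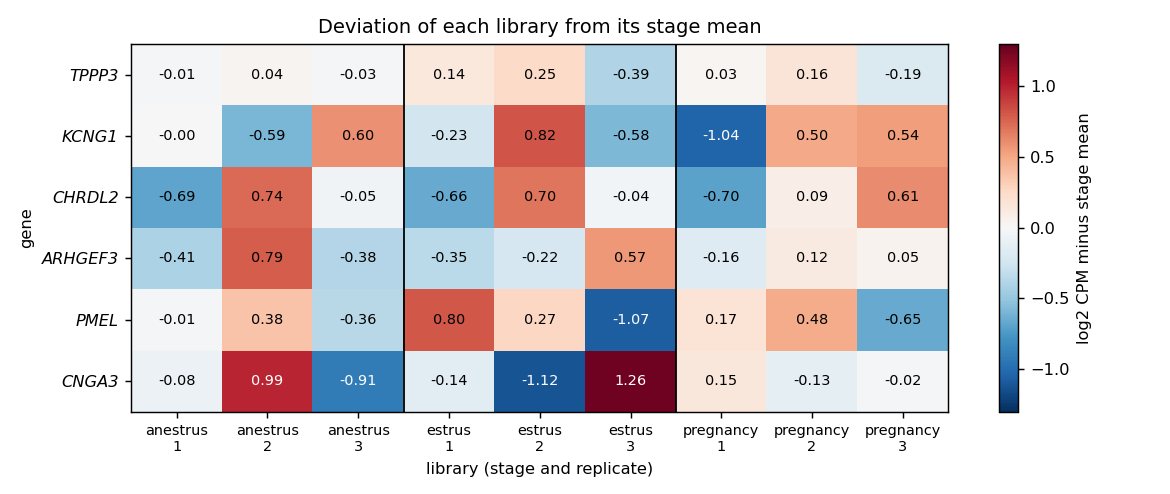
Deviation of log2 CPM from the stage mean for each gene and library, in log2 units. CNGA3 is at 1.26 in estrus replicate 3, where PMEL is at -1.07. The genes differ in which library is high.

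Levels of different genes are compared per length, in the FPKM that the authors deposited. TPPP3 had the highest mean FPKM of the 6 in every stage, at 36.7 ± 2.29 in anestrus, 23.9 ± 5.44 in estrus and 12.0 ± 0.655 in pregnancy (SD, n = 3 each). In estrus PMEL was beside it at 23.7 ± 13.8 FPKM and higher in estrus replicate 1 (37.2 against 27.5 FPKM), so their order there was not settled. In anestrus ARHGEF3 (30.5 ± 13.1) and PMEL (23.0 ± 3.86) followed, and the libraries of ARHGEF3 overlapped those of both neighbours in this order. CNGA3 (14.0 ± 7.97), CHRDL2 (11.6 ± 4.90) and KCNG1 (9.39, 5.53 and 15.1 FPKM in its 3 libraries) came last and overlapped one another. In pregnancy these were again the lowest, at 3.02 ± 0.428, 2.75 ± 1.41 and 1.82 ± 0.996 FPKM. Ranked by FPKM within a library among genes above 0 FPKM, TPPP3 lay between percentiles 79.9 and 80.6 in anestrus and between 45.2 and 55.9 in pregnancy. KCNG1 lay between 46.0 and 61.8 in anestrus and between 12.6 and 22.1 in pregnancy. The same FPKM had unlike percentiles in libraries of unlike depth. An FPKM of 11.3 was percentile 45.2 in pregnancy replicate 3 (TPPP3) but 55.0 in anestrus replicate 3 (CHRDL2). The part of depth in these percentiles was not tested.

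Relatives of the 6 genes by role were read from lists that leave the 6 out. Of 166 such genes tested, 0 passed in edgeR in any of the 3 comparisons (smallest adjusted p = 0.718 in pregnancy versus anestrus, 0.704 in estrus versus anestrus and 0.522 in pregnancy versus estrus). In pregnancy versus anestrus 93 of them had a negative log2 fold change, with a median of -0.11, against 0.00 over all genes. Values below are log2 fold changes of pregnancy over anestrus ± SE unless another comparison is named. The 6 genes were chosen for their fall between these stages, so a gap between them and their relatives was in part built in.

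Among 13 tested BMP antagonists, 7 were negative and 6 positive (median -0.04, of either sign among the alternatives). The nearest relatives of CHRDL2 were CHRDL1, at 73.7 CPM in anestrus and 71.1 CPM in pregnancy (-0.04 ± 0.41), and CHRD, at 15.4 and 13.3 CPM (-0.23 ± 0.35). NBL1, another secreted BMP antagonist, had -0.82 ± 0.24 (adjusted p = 0.718 in edgeR), from 236 to 269 CPM in anestrus and 124 to 171 CPM in pregnancy. FSTL3, which binds activins, had -1.90 ± 0.78 (adjusted p = 0.718 in edgeR), and its anestrus libraries differed widely, at 10.1, 71.6 and 9.26 CPM. On the ligand side, 10 of 16 tested ligands, receptors and pathway genes were positive (median 0.14, but -0.10 without pregnancy replicate 3). BMP6 had means of 17.5 ± 4.00 CPM in anestrus, 11.1 ± 5.94 in estrus and 29.0 ± 8.36 in pregnancy (SD, n = 3 each), and BMP4 of 12.5 ± 2.76, 12.1 ± 3.77 and 13.1 ± 3.59 CPM. BMP2, BMP7 and the oocyte factor BMP15 had 56, 59 and 3 counts over the 9 libraries and were not tested. The receptor BMPR1B had 0.69 ± 0.29 (adjusted p = 0.718 in edgeR). Of 9 tested BMP target genes 5 were negative and 4 positive (median -0.29, but 0.19 without anestrus replicate 2). Of the 4 with the smallest unadjusted p in edgeR, BAMBI had 0.48 ± 0.27 and SMAD6 0.78 ± 0.55. ID2 had -0.45 ± 0.28 and HEY1 -0.72 ± 0.52.

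Other potassium channel subunits were compared with KCNG1. KCNB2 had 1.27, 0.690 and 1.78 FPKM in the anestrus libraries, below KCNG1 in each of them, and 0.30 ± 0.77 for pregnancy over anestrus. KCNG3, a silent subunit of the same family as KCNG1, had means of 22.4 ± 5.85, 13.6 ± 4.64 and 18.1 ± 8.27 CPM in anestrus, estrus and pregnancy (SD, n = 3 each), with -0.27 ± 0.38 (adjusted p = 0.876 in edgeR) where KCNG1 had -2.71. KCNS1 and KCNV1 had no count in any library.

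Partner subunits of CNGA3 were barely detected. CNGB3, its partner in cones, had 1 count in the 9 libraries together and CNGB1, the partner in the rod channel, 1, while CNGA3 had 2005 counts in anestrus alone. Of the other 23 channel and cone phototransduction genes, 14 had 3 counts or fewer in all, among them ARR3, GRK7, GUCY2F and OPN1LW with none. The 2 tested were RGS9 (0.48 ± 0.54) and PDE6D (0.21 ± 0.24). Genes that set or sense cyclic GMP, a ligand of the channel, were better covered (17 tested, 9 negative, median -0.09, of either sign among the alternatives). The natriuretic peptide receptor NPR2, which makes cyclic GMP in granulosa cells, had 84.5 CPM in anestrus and 87.4 CPM in pregnancy. PDE10A had -1.41 ± 0.58, NOS1 -2.15 ± 0.91, NOS3 -1.11 ± 0.48 and NOS2 1.41 ± 0.61, each with adjusted p = 0.718 in edgeR.

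Of 18 tested RHOA and RHOB exchange factors other than ARHGEF3, 8 were negative and 10 positive (median 0.10, but 0.00 without pregnancy replicate 3). Their lowest value was -0.34 ± 0.25 (ARHGEF2), against -1.87 for ARHGEF3. MCF2L had 1.72 ± 0.75 (adjusted p = 0.718 in edgeR), with 12.5 CPM in pregnancy replicate 3 and 1.07 to 2.84 CPM in the other anestrus and pregnancy libraries. RHOA itself had 728 ± 85.5 CPM in anestrus, 759 ± 137 in estrus and 583 ± 59.9 in pregnancy (SD, n = 3 each; -0.32 ± 0.22, adjusted p = 0.742 in edgeR). RHOB was not analysed here. Of 11 tested genes of mTOR complex 2, 6 were negative (median -0.07, of either sign among the alternatives), and RICTOR, its defining subunit, had -0.08 ± 0.27. SGK1, a kinase that the complex activates, had -1.44 ± 0.46 (adjusted p = 0.718 in edgeR), at 58.5 to 188 CPM in anestrus and 27.0 to 51.8 CPM in pregnancy. AKT2, another kinase of this list, had 0.29 ± 0.20. In pregnancy versus estrus AKT2 had 0.97 ± 0.20 (adjusted p = 0.522 in edgeR but 0.0251 in DESeq2), and 8 of the 11 genes were positive and 3 negative.

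Genes specific to pigment cells gave few footprints beside PMEL. TYRP1, MLANA, MC1R, PAX3 and TRPM1, 5 of the 19 other melanocyte and melanosome genes, had no count in any library. DCT had 7 counts in all and tyrosinase (TYR) 36, whereas PMEL had 2572 in anestrus alone. Of the 9 tested, 7 were negative (median -0.42, but 0.02 without anestrus replicate 2 and pregnancy replicate 3). EDNRB, an endothelin receptor of melanoblasts and other cells, had -1.10 ± 0.34 (adjusted p = 0.718 in edgeR), with means of 86.3 ± 37.3 CPM in anestrus and 40.2 ± 4.76 CPM in pregnancy (SD, n = 3 each). MITF, the melanocyte regulator that other cells also use, had -0.42 ± 0.29. GPNMB, a close relative of PMEL, had 0.66 ± 0.39, and 1.12 ± 0.39 in estrus versus anestrus. Of 10 genes that act on PMEL processing, 7 were negative (median -0.16, but 0.14 without the same 2 libraries). BACE2, which cuts PMEL before fibrils form, had -0.38 ± 0.20.

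TPPP3 had 1 tested paralog, TPPP, with 3.26 ± 0.500, 3.86 ± 1.05 and 1.96 ± 1.77 CPM in anestrus, estrus and pregnancy (SD, n = 3 each). Pregnancy replicate 3 had none, and the log2 fold change, -0.55 ± 0.63, was -1.03 without pregnancy replicate 2 and -0.03 without anestrus replicate 2 and pregnancy replicate 3. Ciliated epithelium is a tissue known for TPPP3, and its markers were sparse. FOXJ1, the master regulator of motile cilia, had 2.45, 3.47 and 0.564 CPM in anestrus, no count in estrus and 0.424, 0 and 0 CPM in pregnancy. FOXJ1 had 136 counts in all and did not pass the filter on low counts, so nothing is read from its order among libraries. Of 43 cilia genes with a row 21 were tested, 12 of them negative and 9 positive (median -0.41, but 0.01 without anestrus replicate 1). In estrus versus anestrus 15 were negative and 6 positive (median -0.51). The rule that names genes by unadjusted p picked only negative genes of this list, and the 9 positive ones are not named. The axonemal dyneins DNAH9 (-2.46 ± 0.75) and DNAH5 (-2.18 ± 0.81) and CAPS (-3.06 ± 1.22) were among the lowest, each with adjusted p = 0.718 in edgeR. All rest on few counts, with pregnancy values of 0 to 0.848 CPM for both dyneins and 0 to 1.19 CPM for CAPS. In anestrus DNAH9 had 1.45 to 3.97 CPM, DNAH5 0.886 to 3.57 CPM and CAPS 0.564 to 8.00 CPM. The list summed to 39.5 to 91.3 CPM in anestrus, 36.0 to 45.7 CPM in estrus and 43.1 to 75.6 CPM in pregnancy, and MCIDAS had no count. Surface and oviduct epithelium genes (17 tested, 11 negative, median -0.59, but -0.20 without anestrus replicate 1) summed to 245 to 349, 186 to 497 and 168 to 226 CPM. The oviduct glycoprotein OVGP1 had 53.8, 77.6 and 18.4 CPM in anestrus, 5.16, 0 and 1.52 CPM in estrus and 3.07, 6.70 and 5.95 CPM in pregnancy. The part of these epithelia in the TPPP3 values was not tested.

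**Figure D4:**
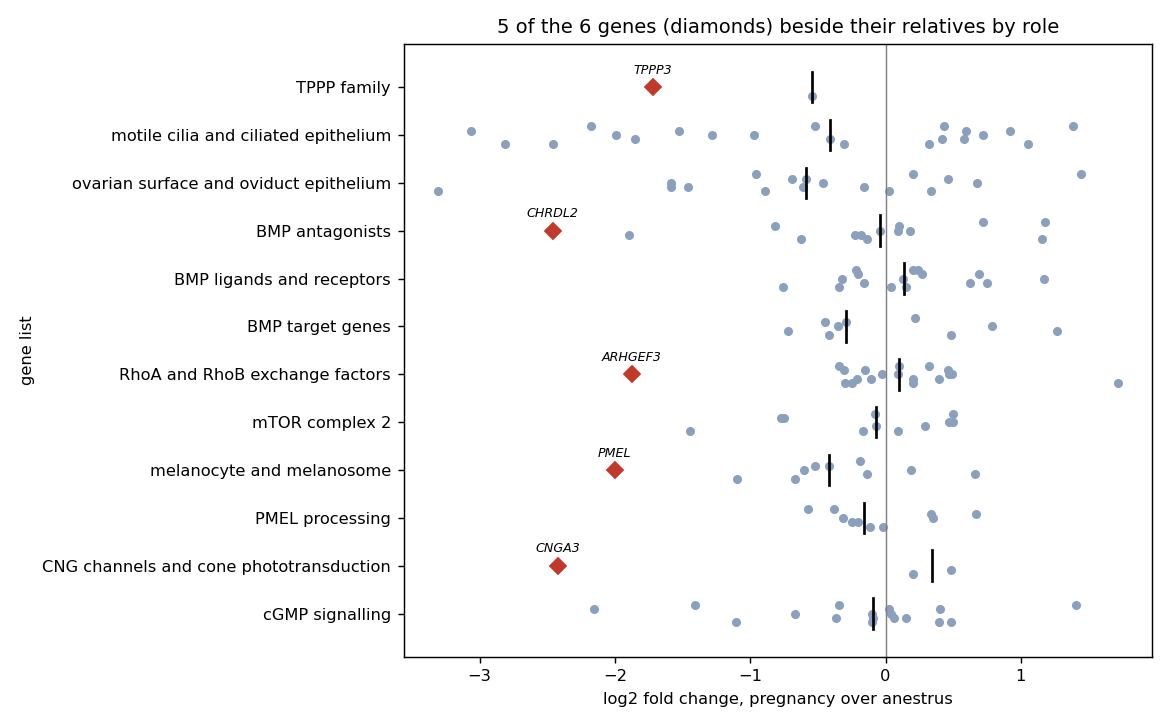
Log2 fold change of pregnancy over anestrus for the tested genes of each list (points), with list medians as black bars and 5 of the 6 genes, all but KCNG1, as diamonds, which are not part of the medians. The exchange factors other than ARHGEF3 lie between -0.34 and 1.72, and ARHGEF3, which was chosen for its fall, at -1.87.

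Among markers of ovarian cell types 0 genes passed in edgeR, so their lists are given by counts, medians and the range of the median with single libraries left out. Of stromal fibroblast markers 9 of 10 were negative in pregnancy versus anestrus (median -0.51, from -0.59 without anestrus replicate 3 to -0.34 without pregnancy replicate 3), with summed levels of 66912 to 112250 CPM in anestrus, 76631 to 109008 CPM in estrus and 53424 to 76805 CPM in pregnancy. Endothelial markers had 9 of 11 negative (median -0.46, from -0.62 without anestrus replicate 3 to -0.23 without anestrus replicate 2). Smooth muscle and pericyte markers had 9 of 12 negative (median -0.37, from -0.43 without anestrus replicate 2 to -0.19 without anestrus replicate 3). Nerve and Schwann cell markers had 6 of 7 negative (median -0.52, from -1.07 without pregnancy replicate 3 to -0.13 without pregnancy replicate 1), and B and plasma cell markers 6 of 8 (median -0.24, from -0.58 without pregnancy replicate 3 to -0.12 without anestrus replicate 3). The 3 tested oocyte genes were negative (median -0.34), but their median ran from -0.74 without pregnancy replicate 2 to 0.01 without pregnancy replicate 1. All 10 theca cell markers were positive (median 1.28, from 0.95 without pregnancy replicate 2 to 1.49 without pregnancy replicate 3), with HSD3B1, a steroid synthesis enzyme, at 1.81 ± 0.42 (adjusted p = 0.718 in edgeR). Granulosa markers had 10 of 12 positive (median 0.51), but their median ran from -0.11 without pregnancy replicate 2 to 1.11 without anestrus replicate 1. The 2 tested blood genes, the globins HBB (1.49 ± 0.92) and HBA (-0.78 ± 0.67), had opposite signs, and their median of 0.35 was -0.22 without pregnancy replicate 3. The part of these cell types in the fall of the 6 genes was not tested.

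**Figure D5:**
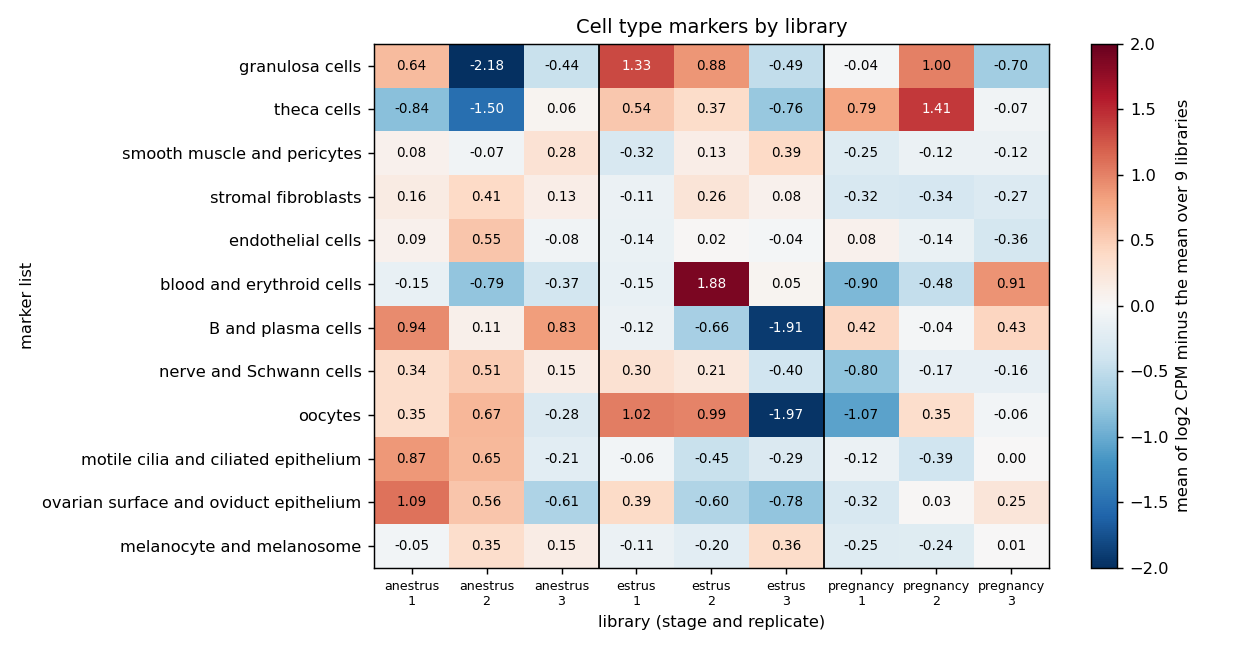
Mean over the tested genes of each marker list of log2 CPM minus the mean over the 9 libraries, by library. Stromal fibroblast markers are 0.13 to 0.41 in anestrus and -0.34 to -0.27 in pregnancy. Granulosa markers are lowest in anestrus replicate 2 (-2.18).

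Gene order was taken from RefSeq's annotation of the yak assembly Bosgru_T2T1.0, for names and neighbours only, and the nearest 2 protein-coding genes on each side made 24 neighbours. Of the 19 tested, 0 passed in edgeR (smallest adjusted p = 0.718), with 10 negative and 9 positive and a median log2 fold change of pregnancy over anestrus of -0.02. The lowest was HSD11B2, the second gene on one side of TPPP3 (-1.43 ± 0.54) and an enzyme that inactivates cortisol, while ZDHHC1 between them had 0.57 ± 0.49, and PMEL lay between CDK2 (-0.19 ± 0.23) and DGKA (-0.14 ± 0.19). In that annotation 3 neighbours overlapped one of the 6 genes: LRRC36 with TPPP3 (14 counts in all), VWA3B with CNGA3 (129 counts, 0.81 ± 0.71) and an unnamed locus with KCNG1. Where genes overlap in the annotation used for counting, footprints could be assigned to either. The counted identifiers are cow Ensembl ones (ENSBTAG), so these overlaps in the yak annotation do not show overlap there.

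The genes most like each of the 6 over the 9 libraries were taken among 10944 others with a symbol and a mean of 5 CPM or more, by Pearson's r of log2 CPM, a description over libraries that share stage and depth. They were CD48 (0.936), NSA2 (0.930) and GFRA1 (0.910) for TPPP3, AMPH (0.923), ZYX (0.919) and CKB (0.895) for KCNG1, and RALY (0.967), DONSON (0.950) and WDR47 (0.920) for CHRDL2. For ARHGEF3 they were ETV3 (0.975), NUP160 (0.965) and WDR1 (0.943), for PMEL RRM1 (0.938), AKIRIN2 (0.935) and ZFR (0.925), and for CNGA3 GPD2 (0.961), PTPDC1 (0.948) and PYGL (0.947). No gene was listed for more than 1 of the 6. Each differed less between pregnancy and anestrus than the gene it resembles, with log2 fold changes from -1.59 (GFRA1, 8.54 CPM in anestrus and 2.58 in pregnancy) to -0.25 (ZFR, 120 and 101 CPM). The choice of the 6 for their fall in part built in that gap.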

How the data were processed

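Per the labels, ribosomal RNA was removed from the footprints with antisense probes and RNase H. The submitters' processing notes name Bowtie2 and RSEM, and versions, settings and genome build were not given in the sources used here. Gene identifiers are those of cow Ensembl (ENSBTAG), and what this does to yak genes with few or no counts was not tested. From the reads the authors made estimated counts, deposited as whole numbers, and FPKM. Their deposited comparison tables also hold a log2 ratio of mean FPKM, a p-value and an FDR whose test is not stated.

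Counts were analysed in edgeR 4.0.16 (R 4.3.3) with filterByExpr, TMM factors (0.8755 to 1.144) and the quasi-likelihood test, with stage as the only term over all 9 libraries and Benjamini-Hochberg adjustment. Fold changes and SEs are from this model. Alternatives were DESeq2 1.42.0, limma-voom (limma 3.58.1), other scalings and filters, a replicate block and left-out libraries. The procedure was tested on simulated data. Named by rule were the 6 genes, their direct partners and OVGP1, up to 4 genes per list by unadjusted p in pregnancy versus anestrus, and 3 genes most alike in pattern. CHRDL1, CHRD, NPR2, ARHGEF2, the neighbours and genes named for having few or no counts were added after their values were seen. The 6 genes and the lists were chosen with earlier results of these data known. Some genes and lists are not reported here. Intervals cover counting error only.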

Additional observations from a re-analysis of the deposited data

How the results depend on the processing

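In edgeR 0 genes passed in each comparison, and DESeq2 called 30 between pregnancy and anestrus, 15 between estrus and anestrus, 29 between pregnancy and estrus and 57 among the 3 stages. The authors' deposited table lists 36, 31 and 23 in the 3 comparisons. The cause was not tested. With single libraries left out, edgeR called 0 in pregnancy versus anestrus, 0 to 2 in estrus versus anestrus (the most without estrus replicate 3), 0 to 1 in pregnancy versus estrus (without pregnancy replicate 3) and 0 to 1 among the 3 stages (without estrus replicate 3). The median of the 6 genes then ran from -2.31 to -1.79, -0.90 to -0.57 and -1.52 to -1.28. With a replicate block 0 genes passed and the medians were -2.24, -0.77 and -1.35. Same-numbered libraries correlated at -0.03 to 0.26 in their deviations from stage means, over 0.1 in 5 of 9 pairs. The 18 pairs with unlike numbers ran from -0.27 to 0.14, so the 2 ranges overlapped. Deviations within a stage sum to 0, so higher same-numbered pairs force lower unlike pairs, and nothing is read from the gap. The main fit did not use the numbers as pairs, because the labels do not tie them to animals. What same-numbered libraries share was not tested. Estrus versus anestrus for PMEL turned sign in 7 of 17 alternatives, and no other fold change of the 6 genes did. Those 17 did not include limma-voom, upper quartile scaling, the stricter count filter or fits on the compared stages alone. The low depth of pregnancy replicate 3 limits every pregnancy value.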
